A study of Rattus norvegicus with 13 samples.

Results

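The expression of 30 genes of sterol and fatty acid synthesis was followed in the thyroid of young male Wistar rats, to ask whether the sterol pathway moves with Acat2. They were chosen by name and comprise the enzymes from acetyl-CoA to cholesterol, the proteins that sense and carry sterols, and 4 enzymes of fatty acid synthesis. Acat2 is in the list because its signal was lower in the KI-treated group on these same arrays, so its group difference is given as a description without a test. All 30 of the 30 genes were found among the 36174 gene names of the array, 29 by the array's gene name and Scd through its transcript accession, since the array still calls it Scd1. Each was represented by its brightest probe, and every one of these probes was well above background on all 13 arrays. The KI-treated group held 6 animals and the control group 7, with 1 array per animal. Their mothers had been given potassium iodide (KI) or saline by gavage from the ninth gestational day over about a week, and the thyroid of the progeny was collected about a month after weaning. All animals were male and of the Wistar strain, and no genetic modification is given for either group. The litter of each animal is not given in the sources used here, so animals of 1 mother may share its treatment and p-values measure the spread between these animals only. Levels are log2 signals with the 75th percentile of each array set to 0, and a log2 difference is taken as KI-treated minus control.

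Cells make cholesterol from acetyl-CoA by the mevalonate pathway, in which Acat2 (cytosolic acetoacetyl-CoA thiolase) and Hmgcs1 (HMG-CoA synthase) catalyse the first steps. The later enzymes build isoprenoid units, join them to squalene and close and trim the sterol ring. The transcription factors of the SREBP family drive most of these genes. When sterols are low, Scap escorts the SREBP precursors from the endoplasmic reticulum to the Golgi, where proteases release the active factor, and when sterols are high, Insig1 and Insig2 hold Scap back. SREBP-2 (Srebf2) acts mainly on cholesterol genes, and SREBP-1c (a product of Srebf1) on the genes of fatty acid synthesis, where Acly supplies cytosolic acetyl-CoA, Acaca makes malonyl-CoA, Fasn builds palmitate and Scd introduces a double bond.

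The arrays had between 34840 and 41050 of 58717 gene spots well above background, and with 13 arrays the precision is that of their number. The arrays of controls 4 and 6 stood apart from the other 11. The median log2 difference between the 3′ probe and the 5′ probe of a gene, taken over 1511 genes with probes 200 to 3000 bases apart, was 1.81 on the array of control 6 and 1.90 on that of control 4. It lay between 1.40 and 1.59 on the other 11 arrays. Results are therefore given with and without controls 4 and 6, a choice made after the data had been seen. The tissue label fitted its markers: 9 of 10 thyroid follicular markers were above background on all 13 arrays, and Slc26a4 on none. Markers of neighbouring tissue were also present. Parathyroid markers were above background on all arrays for 2 of 3 genes and C cell markers for 3 of 3, and adipocyte markers for 9 of 12 with brown fat Ucp1 among them. Skeletal muscle markers were above background on all arrays for 7 of 8 genes, with a summed signal of 5.21 to 78.0 times the 75th percentile in the KI-treated group and 21.3 to 152.6 times in the control group. Of the lymphocyte markers 1 of 8 (Ptprc) was above background on all arrays, and Ms4a1 on none. In whole thyroid tissue, fewer cells of a type and less RNA per cell cannot be told apart.

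Acat2 was measured by 4 probes above background, at 2 places on its transcript, and they did not show the same difference. On the brightest probe (rn4 chr1:41940015-41940074, from base 1951 of the transcript) the KI-treated animals lay at 2.44 (lowest), 2.50 (median) and 2.81 (highest). The controls lay at 2.61, 2.96 and 3.70. Control 2 was the only control within the range of the KI-treated group, and controls 6 and 4 were the highest of all animals at 3.70 and 3.53. KI-treated animals averaged 2.57 ± 0.16 (SD, n = 6) and controls 3.12 ± 0.39 (SD, n = 7), which gives a log2 difference of -0.55 (standard error 0.17). Leaving out controls 4 and 6 made it -0.35, smaller by over 1.5 times. With the 3′ minus 5′ difference of each array as a term it was also -0.35 (standard error 0.097). The neighbouring probe from base 1800 gave -0.49. The probe from base 983, in the coding part of the transcript, had means of -1.29 ± 0.15 in KI-treated animals and -1.35 ± 0.17 in controls, a difference of 0.061 (standard error 0.11). The probe from base 1015 was higher in the KI-treated group by 0.26 (standard error 0.13). So the lower Acat2 signal was carried by the 2 probes near the 3′ end.

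The 2 coding probes are shown because they show no lower Acat2 signal and overlap on the transcript. They are written 5′ to 3′, and capitals mark the 28 bases that both cover. Within those 28 bases the probes differ at 2 positions. The array's annotation places the first on chromosome 1, in the Acat2 gene (rn4 chr1:41938660-41938719), and the second on chromosome 11 (rn4 chr11:41205178-41205237) although it names it Acat2 too, so the second may read a near-identical copy and its value is uncertain.
Acat2, probe from base 983: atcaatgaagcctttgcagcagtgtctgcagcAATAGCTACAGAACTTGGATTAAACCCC
Acat2, probe from base 1015: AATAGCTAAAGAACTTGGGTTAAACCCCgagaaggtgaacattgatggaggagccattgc

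**Figure D1:**
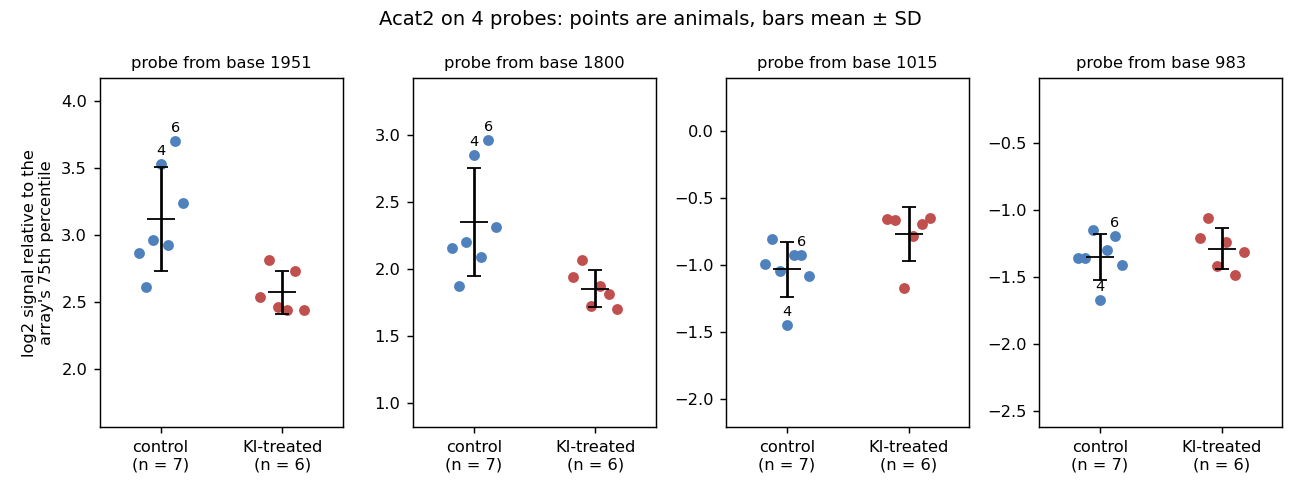
Acat2 on its 4 probes above background. The y axis is the log2 signal relative to the array's 75th percentile, each point is 1 animal (7 control, 6 KI-treated), and bars are the mean ± SD. On the probes from bases 1951 and 1800 controls 4 and 6 lie highest and the KI-treated animals low, and on the probes from bases 1015 and 983 the KI-treated animals are not lower.

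Between the groups, the rest of the pathway was not shown to follow Acat2. With these numbers of animals a fall like that of Acat2 could not be told from none in some genes. These include Acly (-0.55, standard error 0.40), Fasn (-0.51, standard error 0.40) and Acaca (-0.47, standard error 0.28). Of the 29 other members, 1 passed an unadjusted p of 0.05 in limma, where 12.7% of all 25717 probes tested did, and it was higher in the KI-treated group (5.71% of all probes were). None was lower past that threshold on its brightest probe, where 7.01% of all probes were. The split of all probes between higher and lower calls (1469 and 1802) depended on the scaling and was 1825 and 1455 under quantile normalization, 1166 and 3427 with normexp, 1886 and 1359 in the deposited values and 1789 and 1109 with the 75th percentile over spots. After Benjamini-Hochberg adjustment 0 members and 0 probes of the array passed 0.05, and the smallest adjusted p of any probe was 0.257. The log2 differences of the 29 members ran from -0.55 to 0.61, with a median of -0.075 beside -0.078 over all probes, and 20 of 29 were below 0. The 2 medians were -0.030 and -0.014 under quantile normalization, and 0.0033 and -0.0087 in the deposited values. Once controls 4 and 6 were left out the members' median was 0.071 beside -0.0083 over all probes, with 7 of 29 members below 0. The share of all probes below 0 was not counted, here or over all 13 arrays. In that fit 1 member passed the unadjusted threshold, where 9.38% of all probes did. With the 3′ minus 5′ difference as a term the members' median was 0.077 beside -0.014 over all probes. There 1 member passed as well, where 9.35% of all probes did. No member had groups that did not overlap, as 0.323% of all probes did with the KI-treated group below every control.

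The member past the unadjusted threshold was Fdps, farnesyl diphosphate synthase, which makes the building block of squalene. Its signal lay at 1.48, 1.78 and 2.13 (lowest, median, highest) in the KI-treated group and at -0.043, 1.55 and 1.63 in the control group. Control 4 was lowest at -0.043, followed by control 6 at 0.87 and control 7 at 1.16, while the other 4 controls lay between 1.55 and 1.63, within the range of the KI-treated animals. The log2 difference was 0.61 (standard error 0.25, adjusted p = 0.370 in limma), with an exact two-sided permutation p of 0.0245 over 1716 splits. Leaving out controls 4 and 6 made it 0.30, smaller by over 1.5 times, with an unadjusted limma p of 0.047.

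The other mevalonate enzymes lay on both sides of 0. Hmgcs1 had levels of 3.21, 3.47 and 3.73 in the KI-treated group and of 3.0, 3.61 and 4.44 in the control group. The KI-treated range was within the control range, and the difference of -0.19 (standard error 0.19, adjusted p = 0.620 in limma) had an exact permutation p of 0.397. Mevalonate kinase (Mvk) differed by 0.20, phosphomevalonate kinase (Pmvk) by 0.39, the decarboxylase Mvd by 0.00060 and the isomerase Idi1 by -0.065. None of these 4 passed the unadjusted threshold in limma, with Pmvk nearest to it (exact permutation p = 0.0659).

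Of the 11 enzymes from squalene to cholesterol, 3 were above 0 and 8 below, and 0 passed an unadjusted 0.05. Sqle (squalene epoxidase), a control point of the later pathway, lay at 4.40, 4.52 and 4.84 in the KI-treated group and at 4.28, 4.64 and 5.19 in the control group. The KI-treated animals all lay within the control range, with a difference of -0.13 (standard error 0.16, adjusted p = 0.669 in limma, exact permutation p = 0.421). The values furthest from 0 were 0.42 for Sc5d, the lathosterol desaturase, and -0.32 for Fdft1, squalene synthase. Fdft1 kept its value without controls 4 and 6 (-0.31), while Sc5d went to 0.13. Tm7sf2 (-0.26) and Ebp (-0.18), a reductase and an isomerase of the sterol ring, went to 0.067 and -0.0097 without the same 2 arrays. Lss, Cyp51, Msmo1, Nsdhl, Hsd17b7 and Dhcr7 differed by -0.075 to 0.11.

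The regulators gave no difference past the threshold. Srebf1 lay at 2.72, 2.95 and 3.36 in the KI-treated group and at 2.65, 3.15 and 3.89 in the control group, a difference of -0.23 (standard error 0.21, adjusted p = 0.574 in limma, exact permutation p = 0.329). Srebf2 lay at 2.14, 2.28 and 2.59 against 2.07, 2.47 and 3.05, a difference of -0.18 (standard error 0.16, adjusted p = 0.573, exact permutation p = 0.307). Insig1 lay at 2.17, 2.66 and 3.09 against 2.06, 2.57 and 3.56, a difference of -0.17 (standard error 0.24, adjusted p = 0.716, exact permutation p = 0.533). In each of these 3 genes the control range enclosed the KI-treated range, and controls 4 and 6 were the 2 highest animals. Without these arrays the differences were 0.033, 0.017 and 0.12. Scap differed by -0.047 and Insig2 by 0.24. Among the carriers of sterols inside the cell, Stard4 differed by -0.082, and the lysosomal Npc1 and Npc2, which pass cholesterol out of the lysosome, by -0.11 and 0.34.

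All 4 enzymes of fatty acid synthesis had lower means in the KI-treated group, within a wide spread. Fasn lay at 4.25, 5.13 and 6.27 in the KI-treated group and at 4.15, 5.84 and 6.74 in the control group, with control 1 lowest of all 13 animals and control 6 highest. The difference was -0.51 (standard error 0.40, adjusted p = 0.526 in limma, exact permutation p = 0.273). Scd lay at 4.24, 4.95 and 6.01 against 3.68, 5.30 and 7.05, a difference of -0.35 (standard error 0.48, adjusted p = 0.704, exact permutation p = 0.530). Acly differed by -0.55 (standard error 0.40) and Acaca by -0.47 (standard error 0.28), with exact permutation p of 0.242 and 0.162. Leaving out controls 4 and 6 took these to -0.17 for Fasn, 0.17 for Scd, -0.15 for Acly and -0.13 for Acaca. In all 4 enzymes the control range enclosed the KI-treated range.

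**Figure D2:**
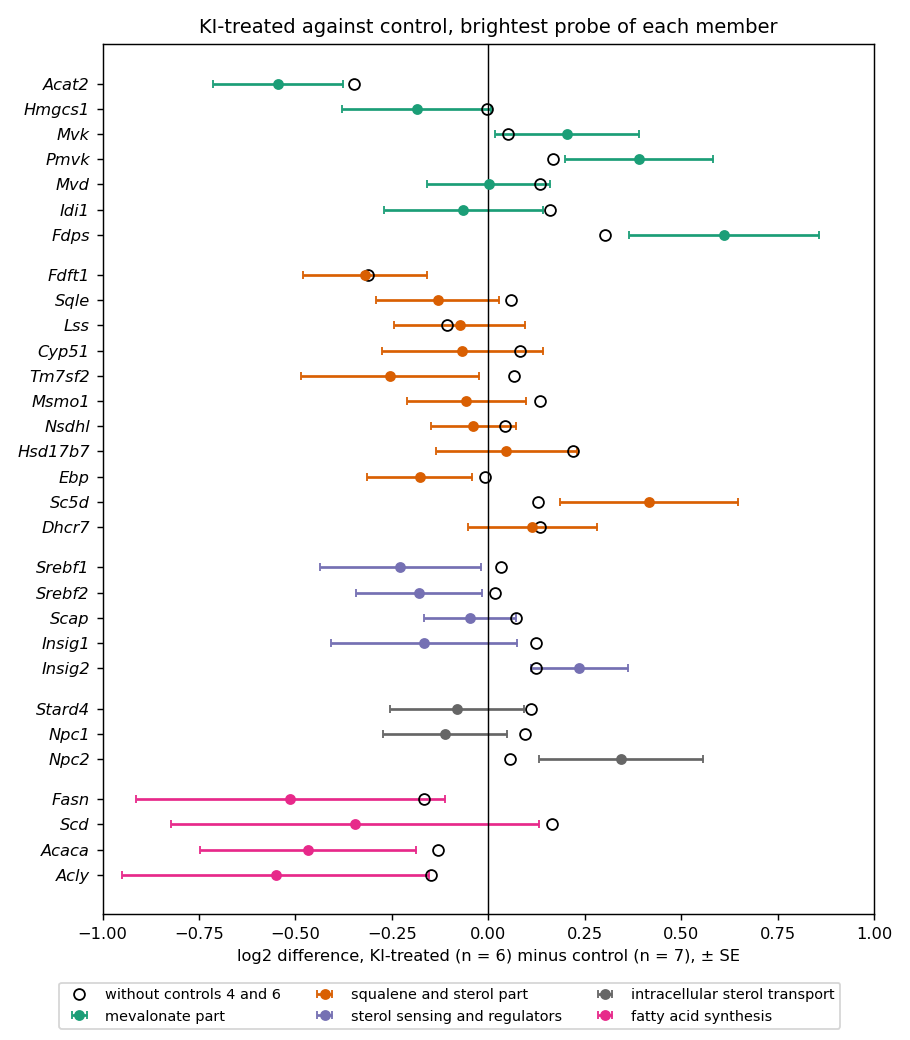
Log2 difference between the KI-treated (n = 6) and control (n = 7) groups for the brightest probe of each of the 30 members, grouped by role. Filled points are the difference over all 13 arrays with its standard error, and open circles the difference without controls 4 and 6. Acat2 (-0.55) and Fdps (0.61) lie furthest from 0 among the sterol genes, and most open circles lie nearer to 0 than the filled points or on its other side.

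Where a gene had several probes, they could disagree. Of the 47 probes of the members, those of 11 genes allowed 2 or more tested probes to be compared. The probe of Insig1 from base 2321 gave -0.17 and that from base 1539 gave 0.61 (exact permutation p = 0.0105). On the probe from base 1539 control 4 (-0.93) and control 6 (-0.44) were the lowest animals, while on the probe from base 2321 they were the highest. Sc5d gave 0.42 from base 1063 and 1.23 from base 234 (exact permutation p = 0.0041), and Nsdhl -0.039 from base 2740 and 0.48 from base 1035 (exact permutation p = 0.0093). In Insig1 and Nsdhl the probe nearer the 5′ end gave the higher difference. The base numbers of Sc5d are counted on 2 different transcript records. On the genome (rn4 chr8, minus strand) its probe from base 234 (45228173-45228232) lies nearer the 3′ end than that from base 1063 (45231028-45231087). After adjustment over all probes in limma none of these probes passed 0.05. The probes with the higher difference gave 0.39 for Insig1, 0.52 for Sc5d and 0.32 for Nsdhl when controls 4 and 6 were left out. Across the animals the level of these same probes fell with the 3′ minus 5′ difference of the array (group-centred r of -0.78 for Insig1, -0.96 for Sc5d and -0.84 for Nsdhl). Acaca was lower on all 3 of its probes, by -0.47 (from base 1806), -0.56 (from base 296) and -0.32 (from base 6951). The exact permutation p was 0.162, 0.0938 and 0.0128, and the probe from base 6951 had an adjusted p of 0.365 in limma. Base 1806 is counted on another transcript record than the others, and on the genome that probe lies 3′ of the probe from base 6951. The 2 probes of Sqle gave -0.13 and -0.16, those of Cyp51 -0.067 and -0.089, and those of Srebf1 -0.23 and 0.049.

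Between animals of the same group, many members did follow Acat2, but so did much of the array. With the group and the Acat2 level as terms in limma, 18 of the 29 members passed an unadjusted 0.05, where 42.5% of all probes did. Of these, 13 went in the same direction as Acat2 and 5 in the opposite direction, where 25.6% and 16.8% of all probes did. After adjustment over all probes 12 members passed 0.05, where 28% of all probes did. Of these 12 members, 9 moved in the same direction as Acat2 (17.1% of all probes) and 3 in the opposite direction. The count was 12 with this scaling and 0 under quantile normalization (alone or after normexp), in the deposited values or with the 75th percentile over spots. With normexp and the 75th percentile the same 12 members passed again, and Pmvk with them, where 20.7% of all probes passed. The members' median group-centred correlation with Acat2 was 0.43, beside 0.14 over all probes. It was 0.18 beside 0.033 under quantile normalization, 0.17 beside 0.017 in the deposited values and 0.17 beside -0.073 with the 75th percentile over spots. Bright probes lay higher in general: the median over all probes rose from -0.14 in the dimmest of 5 equal bins to 0.64 in the brightest, and 14 of the 29 members were in the brightest bin and 8 in the next. A member's correlation with Acat2 was close to its correlation with the 3′ minus 5′ difference of the arrays (r = 0.98 across the 29 members, which share the same 13 arrays and are not independent). Acat2 itself had a correlation of 0.89 with that difference.

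Sqle had the highest correlation with Acat2 (Pearson r = 0.85, permutation p = 0.0029, Spearman rho = 0.74, permutation p = 0.016, limma adjusted p = 0.0118). It was followed by the cholesterol transporter Npc1 (r = 0.81, permutation p = 0.0122, rho = 0.71, permutation p = 0.0235) and by Ebp (r = 0.80, permutation p = 0.0158, rho = 0.73, permutation p = 0.0198). Srebf2 followed Acat2 with r = 0.78 (permutation p = 0.0133, rho = 0.79, permutation p = 0.00796). Controls 4 and 6 were also the 2 animals farthest from the median of the centred Acat2 level, and leaving them out took r to 0.56, 0.35, 0.19 and 0.27. Msmo1 went from 0.74 (permutation p = 0.0282, rho = 0.57, permutation p = 0.0763) to 0.078, and Tm7sf2 from 0.73 (permutation p = 0.0261, rho = 0.59, permutation p = 0.0745) to -0.018. Srebf1 went from 0.71 (permutation p = 0.031, rho = 0.54, permutation p = 0.0926) to 0.10. All 7 relations were thus weaker without the 2 arrays with the highest 3′ minus 5′ difference, and among the 7 Sqle alone kept an r above 0.5. Under quantile normalization r over all animals was 0.68 for Sqle, 0.51 for Npc1, 0.41 for Ebp, 0.48 for Srebf2, 0.32 for Msmo1, 0.42 for Tm7sf2 and 0.37 for Srebf1. Within the control group alone r was between 0.81 (Tm7sf2) and 0.95 (Srebf1) for these 7 genes. Within the KI-treated group alone it was 0.33 for Sqle and 0.24 for Tm7sf2. There it was below 0 for Npc1 (-0.37), Ebp (-0.58), Srebf2 (-0.26), Msmo1 (-0.88) and Srebf1 (-0.71).

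Hmgcs1, which acts on the product of Acat2, did not pass the threshold even with all arrays (r = 0.54, permutation p = 0.143, rho = 0.33, permutation p = 0.323, limma adjusted p = 0.125). Insig1 (r = 0.60, permutation p = 0.0728, rho = 0.57, permutation p = 0.0709), Fasn (r = 0.34, permutation p = 0.326, rho = 0.31, permutation p = 0.314) and Scd (r = 0.40, permutation p = 0.26, rho = 0.34, permutation p = 0.312) did not either. Once controls 4 and 6 were left out all 4 had a correlation below 0, between -0.40 and -0.075.

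Among the members that moved against Acat2, Fdps changed least on leaving out the 2 arrays. Its Pearson r was -0.80 (permutation p = 0.00389) and its Spearman rho -0.95 (permutation p = 0.00032, limma adjusted p = 0.0124), and without controls 4 and 6 its r was -0.78. Within the KI-treated group alone r was -0.76, and within the control group -0.81. With the 3′ minus 5′ difference as a term it was -0.028. Npc2 went from -0.81 (permutation p = 0.00899, rho = -0.77, permutation p = 0.013) to -0.52. Under quantile normalization r was -0.64 for both genes. In the fits over all probes 0 members and 0 probes passed 0.05 after adjustment without the 2 arrays, and likewise with the 3′ minus 5′ difference as a term. In these 2 fits 3 members and 1 member passed an unadjusted 0.05, where 9.35% and 5.85% of all probes did. The members' median correlation with Acat2 was then -0.080 and -0.11, beside 0.044 and 0.017 over all probes.

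**Figure D3:**
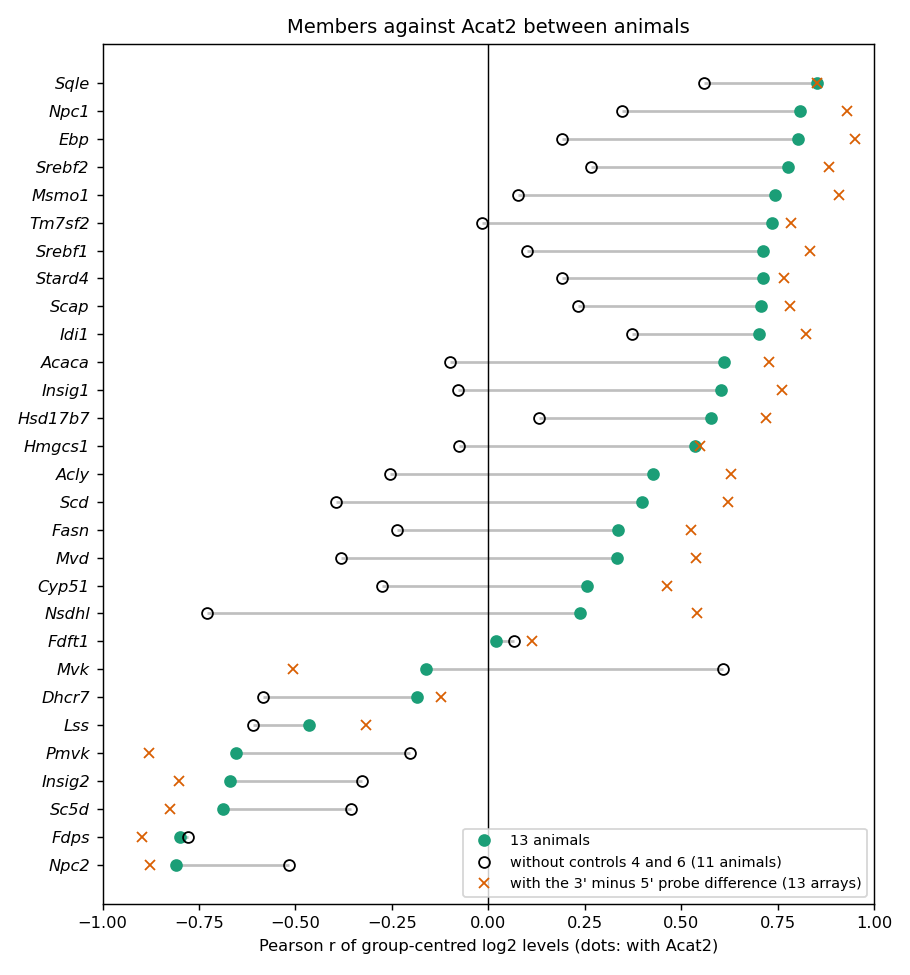
Correlation of each of the 29 other members with Acat2 between animals, as Pearson r of log2 levels with the group means removed. Filled points use 13 animals, open circles leave out controls 4 and 6, and crosses give the correlation of the member with the array's 3′ minus 5′ probe difference. Crosses lie close to the filled points, and 22 of 29 open circles lie nearer to 0 than the filled points, that of Fdps by little (-0.80 and -0.78). The other 7 lie further from 0, among them Nsdhl (0.24 and -0.73) and Mvk (-0.16 and 0.61).

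**Figure D4:**
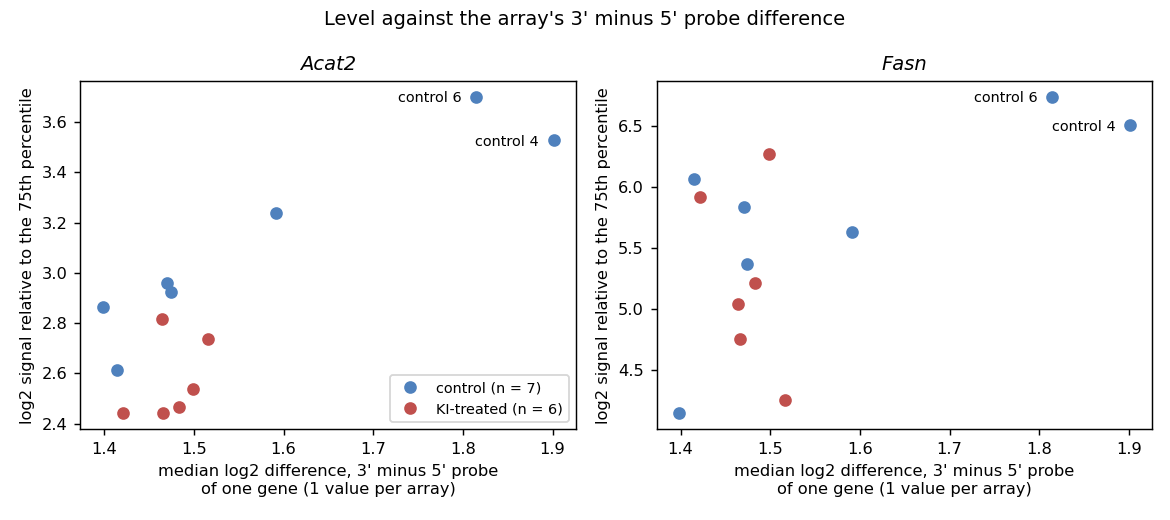
Level of Acat2 and of Fasn on each array against the median 3′ minus 5′ probe difference of that array. Points are animals (7 control, 6 KI-treated), the y axis is the log2 signal relative to the 75th percentile, and controls 4 and 6 stand apart at 1.90 and 1.81. Acat2 rises with the difference (group-centred r = 0.89), while Fasn runs from 4.15 to 6.27 among the other 11 arrays and is highest in controls 6 and 4 (6.74 and 6.50, r = 0.52).

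The closest common movement was in fatty acid synthesis rather than around Acat2. The 6 pairs among Fasn, Acly, Acaca and Scd had a median correlation of 0.94 between animals (mean 0.94). The 325 pairs of the 26 sterol genes had a median of 0.33 (mean 0.15), and all pairs of probes a mean of 0.013. Fasn was taken as a second reference gene after this had been seen, and the pairs below were chosen after their values were seen. With the group and the Fasn level as terms in limma, the 3 other enzymes passed 0.05 after adjustment and no further member did, where 0.0817% of all probes passed (21 of 25716). Fasn and Acly had r = 0.95 (permutation p = 1e-05, the smallest that 100000 permutations can give, rho = 0.92, permutation p = 8e-05, limma adjusted p = 0.00394). For Scd r was 0.94 (permutation p = 2e-05, rho = 0.91, permutation p = 0.0001, limma adjusted p = 0.00415) and for Acaca 0.93 (permutation p = 1e-05, rho = 0.88, permutation p = 0.0003, limma adjusted p = 0.00876).

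The other 2 probes of Acaca had r with Fasn of 0.86 (from base 296) and -0.0065 (from base 6951). In both groups the brightest probes of the 4 enzymes ran in nearly the same order of animals. Among the controls, control 1 was lowest in all 4 (Fasn 4.15, Acly 3.75, Scd 3.68, Acaca 3.41) and control 6 highest (Fasn 6.74, Acly 6.60, Scd 7.05, Acaca 5.41). Among the KI-treated animals, KI-treated 1 and 4 were the 2 highest in all 4. The correlation of Fasn with Acly was 0.92 in the KI-treated group and 0.97 in the control group. Leaving out KI-treated 1 and control 1, the 2 animals farthest from the median of Fasn, left r between 0.90 and 0.92 for the 3 enzymes. Leaving out controls 4 and 6 gave r of 0.94 for Acly, 0.93 for Scd and 0.97 for Acaca, with limma adjusted p of 0.0442, 0.0611 and 0.0373, so that 2 members passed, where 0.0194% of all probes did. With the 3′ minus 5′ difference as a term all 3 passed, where 0.0467% of all probes did. Under 5 other scalings of the signal all 3 passed, with r between 0.91 and 0.94. Scan session as a block gave r between 0.93 and 0.94. Without control 1 no probe passed after adjustment, and with slide as a block none did either, while r was at or above 0.90 in every fit that left out 1 array.

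**Figure D5:**
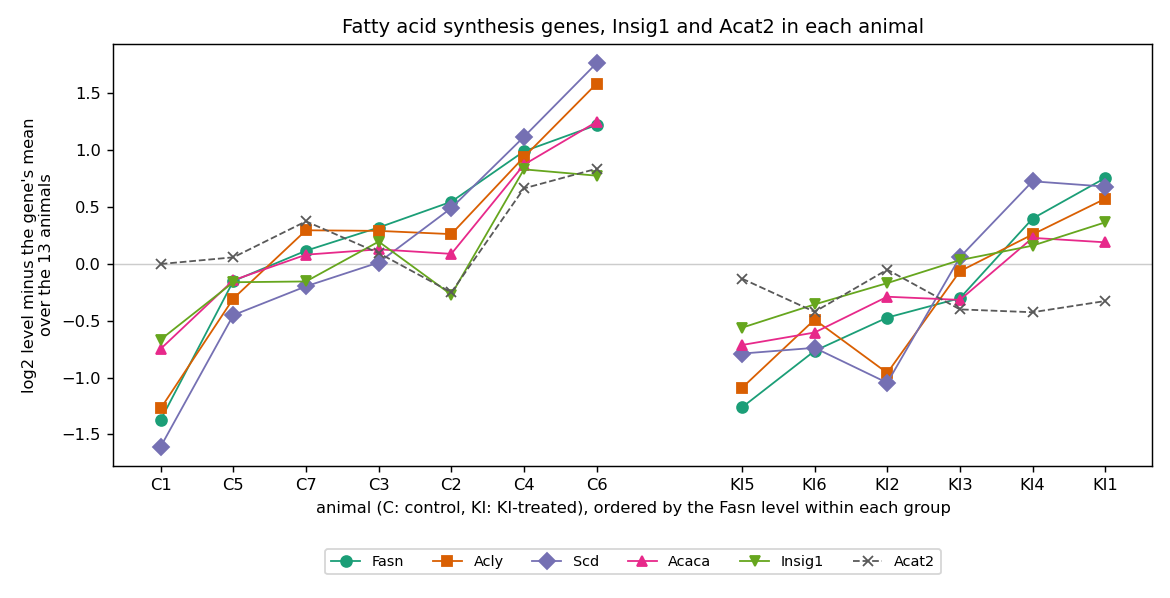
Levels of Fasn, Acly, Scd, Acaca, Insig1 and Acat2 in each animal, as log2 level minus the gene's own mean over the 13 animals. Animals are ordered by Fasn within the control group (C) and the KI-treated group (KI). The solid lines of the 4 enzymes and Insig1 climb together in both groups, and the dashed line of Acat2 climbs with them in controls 4 and 6 but not among the KI-treated animals (r with Fasn -0.44).

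Several sterol genes went with Fasn more closely than with Acat2, without passing 0.05 after adjustment. Insig1 was nearest (r = 0.89, permutation p = 5e-05, rho = 0.85, permutation p = 0.00078, limma adjusted p = 0.0545), and without controls 4 and 6 its r was also 0.89. The second probe of Insig1, from base 1539, did not go with Fasn (r = 0.065). Hsd17b7 (r = 0.86, permutation p = 0.00048, rho = 0.78, permutation p = 0.00283), Stard4 (r = 0.83, permutation p = 0.00057, rho = 0.81, permutation p = 0.00105), Hmgcs1 (r = 0.83, permutation p = 0.00122, rho = 0.81, permutation p = 0.00195) and Cyp51 (r = 0.82, permutation p = 0.00198, rho = 0.75, permutation p = 0.00691) had limma adjusted p between 0.107 and 0.119. Their r was 0.76 to 0.82 when controls 4 and 6 were left out. The transcription factors lay lower, Srebf1 at r = 0.71 (permutation p = 0.00887, rho = 0.70, permutation p = 0.0131) and Srebf2 at r = 0.71 (permutation p = 0.00865, rho = 0.63, permutation p = 0.0245). Of the 29 members other than Fasn, 13 passed an unadjusted 0.05 with Fasn, all in its direction, where 10.3% of all probes did. Acat2 was not among them (r = 0.34). With controls 4 and 6 left out, 10 passed, where 4.95% of all probes did.

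Marker sums of other cell types varied with Fasn to differing extents. The summed signal of the adipocyte markers was 90.1 to 205.7 times the 75th percentile in the KI-treated group and 136.1 to 210.4 times in the control group, with 9 of 12 markers above background on all arrays. Its group-centred correlation with Fasn was 0.51, and 0.56 without controls 4 and 6. The sum was set mostly by its brightest gene Ucp1 (r = 0.61). Over the 12 single markers the median correlation with Fasn was 0.046. In limma 2 passed an unadjusted 0.05 in its direction, Lep (r = 0.69) and Ucp1, and 1, Lipe (r = -0.57), against it. A second probe of Lipe had r = -0.19. Other sums had correlations with Fasn of 0.58 for blood, 0.52 for lymphocytes, 0.45 for thyroid follicular cells, 0.25 for parathyroid, -0.24 for skeletal muscle and -0.35 for C cells, and their part in the relations with Fasn was not tested. With the adipocyte sum as a term beside group, the correlation of Fasn was 0.97 with Acly, 0.93 with Scd, 0.92 with Acaca and 0.88 with Insig1. The correlation of Acat2 with marker sums was 0.86 for parathyroid, 0.71 for thyroid follicular cells, 0.71 for blood and -0.71 for C cells, and the part of these tissues in the Acat2 relations was not tested.

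Promoter sequence was compared because the members share regulators of the SREBP family. RefSeq promoters (GRCr8, from 250 bases before to 50 after the start of transcription) were at hand for 24 of the 30 members. The sterol regulatory element TCACNCCAC was found on either strand in 0 of these 24 and in 1.12% of all 33469 promoters, which says only that these letters are not in the windows. CCAAT, the box bound by NF-Y, which acts together with SREBPs, was present in 18 of 24 members and in 37.5% of all promoters. The GC box GGGCGG was present in 20 of 24 members and in 33.1% of all promoters. Matches of different motifs may share bases, and they are descriptions, not sites. Shown are windows before the start of transcription of 3 genes that went with Fasn and of Acat2, whose promoter held the GC box but no CCAAT, each 5′ to 3′ along the gene with the match in capitals. In Insig1, Hmgcs1 and Hsd17b7 the match is CCAAT on the opposite strand and in Acat2 GGGCGG on the opposite strand. The promoters of Insig1, Hmgcs1 and Hsd17b7 held the GC box as well. That of Cyp51, which also went with Fasn, held the GC box but no CCAAT, as in Acat2. The promoter of Scd, with an r of 0.94 with Fasn, held neither. Members with CCAAT lay on both sides of 0 in their r with Fasn, from genes like Acly (0.95) to genes like Mvk (-0.52). Promoters of Fasn, Acaca and Stard4 were not at hand. Whether CCAAT goes with the relation to Fasn was not tested.
Insig1, GRCr8 chr4:8057933-8057987, minus strand: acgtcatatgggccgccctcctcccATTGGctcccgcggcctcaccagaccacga
Hmgcs1, GRCr8 chr2:53382146-53382200, plus strand: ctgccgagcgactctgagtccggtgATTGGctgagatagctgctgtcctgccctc
Hsd17b7, GRCr8 chr13:84722755-84722804, minus strand: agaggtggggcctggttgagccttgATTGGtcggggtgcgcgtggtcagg
Acat2, GRCr8 chr1:50100748-50100803, plus strand: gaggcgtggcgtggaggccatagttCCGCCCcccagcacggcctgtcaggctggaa

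A list of 30 further genes of the same pathways was measured beside the members, of which 26 were bright enough to be tested. Of these, 3 passed an unadjusted 0.05 in limma, all higher in the KI-treated group, where 12.7% of all probes passed and 5.71% were higher, and 0 passed after adjustment. Acss2, which makes acetyl-CoA from acetate in the cytosol, lay at -0.18 in the KI-treated group and -0.75 in the control group on average, a difference of 0.57 (standard error 0.16, adjusted p = 0.342 in limma, exact permutation p = 0.0035). Fads1, the delta-5 desaturase of long fatty acids, differed by 0.47 (standard error 0.17, adjusted p = 0.354, exact permutation p = 0.0128). Ggps1, which makes geranylgeranyl diphosphate from the product of Fdps, differed by 0.33 (standard error 0.14, adjusted p = 0.376, exact permutation p = 0.028), but a second probe of the gene gave -0.19. Leaving out controls 4 and 6, the 3 differences were 0.42, 0.37 and 0.31. Elovl6, which lengthens the product of Fasn, is named outside the selection rule, after its values were seen. It differed by -0.75 (standard error 0.40, exact permutation p = 0.122) and did not pass the unadjusted threshold. Its value was -0.40 when controls 4 and 6 were left out, and a second probe gave 0.16 (r with Fasn 0.59). Elovl6 was the only one of the 26 to follow Fasn past 0.05 after adjustment (r = 0.94, permutation p = 3e-05, rho = 0.93, permutation p = 7e-05, limma adjusted p = 0.00415). Over the whole array the genes nearest to Acat2 between animals were Prdm2 (r = 0.96, permutation p = 4e-05, rho = 0.93, permutation p = 0.00016), a transcript without a gene symbol (r = 0.96) and Fam159a (r = 0.96, permutation p = 4e-05, rho = 0.96, permutation p = 0.00017), none of them a pathway gene. Leaving out controls 4 and 6, their r was 0.88, 0.87 and 0.90. These 3 were picked for the highest r of all probes, so their permutation p-values are descriptions and no test. Their limma adjusted p over all probes was 0.0058, 0.014 and 0.0096, where 28% of all probes passed 0.05.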

How the data were processed

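One-colour Agilent arrays were hybridised with Cy-3 labelled thyroid RNA of 13 animals. The spot intensities that the authors deposited came from Agilent Feature Extraction (version 10.7.3.1, coordinates in rn4), which had subtracted and detrended the background but not normalized between arrays. A second deposited table, of log2 values with near-equal quantiles and column medians of 7.16 to 7.30, was made by a method not given in the sources used here and served as an alternative. Columns of other samples numbered 0.

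Processed signals were put on the log2 scale and each array's 75th percentile was subtracted, after spots marked as outliers had been dropped and repeated spots averaged. Probes well above background on 6 or more arrays (25717 of 45598) were tested in limma 3.58.1 (R 4.3.3) with Benjamini-Hochberg adjustment over all of them, at 0.05. Single differences were tested by exact two-sided permutation over 1716 splits. For the relation between animals, limma was fitted with the group and the level of Acat2 or Fasn as terms, and correlations of group-centred levels were permuted 100000 times within groups, two-sided (Python 3.11.15, numpy 2.4.6). The fits were checked on simulated arrays. The members and gene lists were chosen with earlier results of these data known.

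Named with full statistics were Acat2, members past an unadjusted 0.05, the 6 highest and 2 lowest in correlation with Acat2, 7 regulators and marker enzymes, the 3 genes nearest to Acat2, and up to 3 further pathway genes with the smallest p. The alternatives tried were quantiles in place of the 75th percentile, normexp (offset 50) on the mean signal with each of these, the deposited log2 values, 2 filters, slide, scan session or replicate number as a block, array weights, the mean of a gene's probes, the methods' t-test and leaving out each array. Chosen after seeing the data were leaving out controls 4 and 6, the 3′ minus 5′ difference as a term, Fasn as the reference gene, the adipocyte sum as a term and the 75th percentile over all spots. There were 6 slides, of which that of control 7 held no other array, and 3 scan sessions. Promoters came from RefSeq (GRCr8). Some further genes are not reported here.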

Additional observations from a re-analysis of the deposited data

Results flagged for a closer look

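Among the 60 sets of values formed by the 30 members in each group, 1 held an animal far from the others. Mvk in control 4 lay at -1.73, while the other 6 controls lay between -1.02 and -0.66, so that the gap to its neighbour was 0.66 of the whole range. Chance alone flags about 1 in 20 such sets. Control 4 was also the array with the highest 3′ minus 5′ difference, and without it and control 6 the difference of Mvk between the groups was 0.050 in place of 0.20.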

How the results depend on the processing

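The number of arrays limits every difference given here. No alternative brought a member past 0.05 after adjustment between the groups. The whole array gave 0 probes except with array weights (55) and without control 1 or control 2 (1 each; leave-one-out range 0 to 1), and the t-test named in the methods also gave 0 (3142 probes unadjusted). Acat2, chosen for its lower signal on these same arrays, stayed lower in the KI-treated group under every alternative, least so with the mean of its probes (-0.18). That is a description and no support for a difference. Causes were not tested.

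Members past an unadjusted 0.05 between the groups (1, where 12.7% of all probes passed) numbered 2 with normexp and the 75th percentile (17.9%), with slide as a block (15.5%) and with array weights (17.1%), 4 with scan session as a block (19.9%) and with the mean of a gene's probes (12.8%), and 0 to 5 on leaving out each array (0 without KI-treated 1 or 4, 2 without control 5, 4 without control 2 and 5 without control 1, where 9.19%, 10.2%, 13.5%, 17.2% and 17.9% passed). Replicate numbers did not pair the animals (correlations of deviations between -0.11 and 0.071), and the replicate block left 0 members between the groups, 0 following Acat2 after adjustment and 9 before (27.1% of all probes), and 0 following Fasn after adjustment.

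Members following Acat2 after adjustment (12) numbered 0 with quantile normalization, normexp with quantiles, the deposited values, the 75th percentile over spots, slide or scan session as a block, array weights and the mean of a gene's probes, 3 without a filter, and 3 to 15 on leaving out each array (3 without control 4, 4 without control 6, 8 without control 2). Before adjustment (18, where 42.5% of all probes passed) they numbered 3 with quantile normalization (17.9%), 4 with normexp and quantiles (19.1%) and with the deposited values (16.5%), 9 with the 75th percentile over spots (28.5%), 6 with scan session (19.5%), 5 with array weights (16.8%) and 8 with the mean of probes (17.1%). Without controls 4 and 6 they numbered 0 after and 3 before adjustment, with a median r of -0.080 (0.044 over all probes). With the 3′ minus 5′ term they numbered 0 and 1, with a median r of -0.11 (0.017 over all probes). Members following Fasn after adjustment (3) numbered 0 with slide as a block and 0 to 4 on leaving out each array (0 without control 1). With normexp and the 75th percentile the same 12 members followed Acat2 after adjustment, and Pmvk with them, where 20.7% of all probes did.

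Some differences changed sign, of which Scd (-0.35), Tm7sf2 (-0.26) and Srebf1 (-0.23) had been the furthest from 0, and none of them passed the threshold after adjustment. With quantile normalization Idi1 was 0.027, Msmo1 0.069 and Scap 0.012. With normexp and the 75th percentile Hsd17b7 was -0.024. With normexp and quantiles Idi1 was 0.019, Msmo1 0.066 and Scap 0.0025. In the deposited values Idi1 was 0.042, Sqle 0.013, Cyp51 0.0033, Msmo1 0.055, Nsdhl 0.014 and Scap 0.041. With the 75th percentile over spots Idi1 was 0.014, Lss 0.0047, Cyp51 0.012, Msmo1 0.022, Nsdhl 0.041 and Scap 0.032. Mvd was -0.082 with slide and -0.063 with scan session as a block, and Cyp51 0.030 with scan session. With array weights Idi1 was 0.15, Msmo1 0.047, Nsdhl 0.060, Scap 0.054 and Npc1 0.00080. With the mean of probes Nsdhl was 0.22, Hsd17b7 -0.011 and Insig1 0.22. Without controls 4 and 6 Idi1 was 0.16, Sqle 0.059, Cyp51 0.081, Tm7sf2 0.067, Msmo1 0.14, Nsdhl 0.042, Srebf1 0.033, Srebf2 0.017, Scap 0.071, Insig1 0.12, Stard4 0.11, Npc1 0.095 and Scd 0.17. With the 3′ minus 5′ term Idi1 was 0.16, Sqle 0.040, Cyp51 0.062, Msmo1 0.12, Nsdhl 0.021, Srebf1 0.0051, Srebf2 0.0040, Scap 0.055, Insig1 0.086, Stard4 0.092, Npc1 0.077 and Scd 0.077. Leaving out each array gave -0.067 to 0.077 for Mvd, -0.16 to 0.062 for Idi1, -0.18 to 0.0058 for Lss, -0.19 to 0.031 for Cyp51, -0.12 to 0.025 for Msmo1, -0.072 to 0.0031 for Nsdhl, -0.085 to 0.12 for Hsd17b7, -0.088 to 0.017 for Scap and -0.18 to 0.028 for Stard4.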

Other observations

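Outside the pathway lists, the gene of the sodium-iodide symporter (Slc5a5), which brings iodide into the follicular cell, had a high correlation with Fasn between animals. It was picked after its value was seen, among the markers checked. Pearson r was 0.85 (permutation p = 0.00052) and Spearman rho 0.84 (permutation p = 0.00096), with r = 0.72 in the KI-treated group and 0.92 in the control group. After adjustment over all probes in limma its p was 0.0628, and without controls 4 and 6 its r was 0.79. Its level did not differ between the groups past the threshold (log2 difference -0.068, standard error 0.37, adjusted p = 0.925 in limma), and the difference was 0.36 without controls 4 and 6 and 0.27 with the 3′ minus 5′ difference as a term.

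Over the whole array the 5 probes nearest to Fasn were those of Capn6 (r = 0.96), Acly, Kcng2 (r = 0.94), LOC679881 (r = 0.94) and Elovl6. Me1, the malic enzyme that supplies NADPH for fatty acid synthesis, had r = 0.83 with Fasn (permutation p = 0.00115, rho = 0.73, permutation p = 0.0092, limma adjusted p = 0.100), and 0.77 without controls 4 and 6.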
